A study of Mus musculus with 88 samples.

Results

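Slfn1, Slfn2, Slfn4, Slfn5, Slfn8 and Slfn9 are 6 members of the mouse Schlafen family, followed here through naive cortex and cortex 24 h and 72 h after a contusion, on the injured and on the opposite side. They are 6 of the 54532 genes in the count table, found by matching their Ensembl identifiers to these symbols. The family was picked because Slfn4 showed a rise at 24 h that is among the largest of all genes in the injured cortex, and a drop by 72 h. The ipsilateral contrasts of 24 h with naive and of 72 h with 24 h therefore chose these genes. For the 6 members both are given below as a description with no p-value, and nothing is read from the counts called. Other genes are tested in these contrasts.

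The libraries came from C57BL/6 mice of both sexes, some of which received a controlled cortical impact, in which a motorised tip strikes the exposed brain. The labels give an age of 8 to 9 weeks for the injured mice, a craniotomy of 3 mm on the right, a tip of 2 mm moving at 6.0 m/s to a depth of 1 mm for 100 ms, and buprenorphine at 0.05 mg/kg. Naive mice had no surgery and no analgesic, and no group had surgery alone, so effects of impact, surgery and drug cannot be told apart. All mice were perfused before a punch of 4 mm was taken from each hemisphere. The groups were naive mice (7 females and 6 males), mice at 24 h (7 females and 8 males) and mice at 72 h (9 females and 7 males, of which 6 males had an ipsilateral library that could be assigned). The right punch of naive mice carries the ipsilateral label.

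Schlafen proteins are named after the German word for sleep, because the first of them slowed the growth of developing T cells. They are grouped by size: Slfn1 and Slfn2 are short, Slfn4 is intermediate, and Slfn5, Slfn8 and Slfn9 are long and carry a helicase-like domain at their end. Several are switched on by interferons and by microbial products in macrophages and T cells, and Slfn2 is known to keep T cells and monocytes in a resting state. Slfn4 is best known from myeloid cells of the mouse, including a population that appears in the inflamed stomach.

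The 6 genes lie in 1 cluster on mouse chromosome 11 (GRCm38, chr11:82951349-83286726, 335378 bases) that holds 9 Schlafen genes. By GENCODE M21, Slfn5 lies at chr11:82951349-82964840, Slfn2 at chr11:83065112-83070678, Slfn1 at chr11:83116849-83122670 and Slfn4 at chr11:83175186-83190216, all on the plus strand. Slfn9 lies at chr11:82978390-82991830 and Slfn8 at chr11:83002158-83020810, both on the minus strand. The longest coding sequences hold 337 codons in Slfn1, 378 in Slfn2, 602 in Slfn4, 884 in Slfn5, and 910 in each of Slfn8 and Slfn9. Slfn8 and Slfn9 are 92.7% identical over their aligned coding bases, and Slfn4 is 92.2% identical to Slfn3, a family member outside the 6. Of the windows of 50 bases in a gene's transcripts, 14.6% in Slfn8, 11.2% in Slfn9, 8.15% in Slfn4, 4.27% in Slfn2, 0.606% in Slfn1 and 0% in Slfn5 occur unchanged in another Schlafen gene. How the authors' counting treated reads from such stretches is not given in the sources used here, so a part of the Slfn8, Slfn9 and Slfn4 counts may be shared or lost. Slfn5 overlaps the antisense gene Slfn5os over 482 exonic bases, but Slfn5os holds 27 counts in all 88 libraries together.

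The stretches before the gene starts are shown because the 6 genes fall into 2 groups by the motifs in them, and these groups are referred to beside the time courses. The search covered the RefSeq promoters (GRCm38.p6, 250 bases before to 50 after the start) on both strands, and all 6 members were matched. The letters GAAA, any 2 bases and GAAA again, the core of the interferon-stimulated response element, occur in 3.44% of 32851 promoters and in those of Slfn5, Slfn8 and Slfn9. The letters ACTTCCTG, an ETS-type motif picked after these promoters had been read, occur in 3.33% of promoters and in those of Slfn1, Slfn2, Slfn4 and, outside the 6, Slfn3. TGANTCA, an AP-1-type motif, occurs in 7.81% of promoters and among the members in that of Slfn4. TTCNNNGAA, the GAS-type motif, occurs in 8.3% of promoters and in none of these 6 windows. Each line below gives 60 bases on the strand of the gene, with the motif in capitals; a match is a description of letters and not a proven site. The capitals begin at -74 (Slfn1), -55 (Slfn2), -73 (Slfn4), -155 (Slfn5), -48 (Slfn8) and -45 (Slfn9) relative to the RefSeq start, and the Slfn5 stretch lies within the exon of a longer GENCODE transcript that has no coding sequence.
Slfn1, chr11:83116720-83116779, plus strand: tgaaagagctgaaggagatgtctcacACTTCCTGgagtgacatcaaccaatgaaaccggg
Slfn2, chr11:83065031-83065090, plus strand: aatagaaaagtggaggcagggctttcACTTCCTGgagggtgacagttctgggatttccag
Slfn4, chr11:83175087-83175146, plus strand: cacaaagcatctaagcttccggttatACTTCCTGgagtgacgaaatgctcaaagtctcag
Slfn5, chr11:82951922-82951981, plus strand: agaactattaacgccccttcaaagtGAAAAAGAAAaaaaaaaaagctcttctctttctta
Slfn8, chr11:83020824-83020883, minus strand: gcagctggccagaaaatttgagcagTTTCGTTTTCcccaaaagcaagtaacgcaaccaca
Slfn9, chr11:82991841-82991900, minus strand: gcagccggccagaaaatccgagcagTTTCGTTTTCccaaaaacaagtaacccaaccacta
The Slfn8 and Slfn9 lines hold the motif in its reverse form.

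Total counts per library were 10.6 to 26.4 M (median 16.2 M). Both libraries of the female LF3 at 72 h stood apart: their median absolute log2 difference from the other libraries of their time and side was 0.982 on the injured side and 1.02 on the opposite side, against 0.0736 to 0.4 in the other 86 libraries. The excitatory neuron transcript Slc17a7 reached 7518 and 5953 CPM (counts per 1 M counts of the library) in them, against 796 to 2018 CPM elsewhere, and all 6 Schlafen genes were lower in its injured punch than in the other 14 at 72 h. The ipsilateral library of PF1, labelled female at 72 h, holds male transcripts (Xist 0.112 CPM, Ddx3y 60.2 CPM), while the opposite side of that animal holds female ones (Xist 485 CPM, Ddx3y 0). The ipsilateral library of PM1 is labelled female and holds female transcripts (Xist 489 CPM, Ddx3y 0), while the opposite side of that animal is labelled male and holds male ones, so it entered no comparison. Both are ipsilateral libraries of batch B at 72 h, and whether they were exchanged was not tested. The main results at 72 h are therefore also given without LF3 and PF1, an alternative chosen after the data were seen. The punches held the markers of cortex: 6 neuron genes summed to a median of 6234 CPM in naive ipsilateral cortex, 6276 CPM at 24 h and 4800 CPM at 72 h.

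In naive cortex Slfn5, an interferon-induced long member, was the most abundant of the 6 per length. Its median level was 1.36 CPM per kb of exon on the right side, while Slfn2 was at 0.8, Slfn8 at 0.288 and Slfn9 at 0.0741 CPM per kb. Slfn1 and Slfn4 were close to absent, with 3 and 7 counts over all 13 naive ipsilateral libraries. In the summed level per kb of the family, Slfn5 held a median of 52.7% and Slfn2 31.2%. Right and left naive cortex did not differ beyond the test for any member.

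At 24 h in the injured cortex all 6 transcripts stood higher than in naive cortex, and Slfn4 had the largest fitted fold change of the 19126 genes tested. Slfn4 ranged from 9.61 to 206 CPM over 15 libraries at 24 h (median 60.9), against 0 to 0.137 CPM in 13 naive libraries (median 0). Every library at 24 h lay far above every naive library. The fitted log2 fold change was 10.53 ± 0.66 (SE, mean over the sexes; 11.43 without the naive CF2, 9.8 in batch A alone and 13.33 in batch B alone), and the pooled counts of 16828 and 7 gave a ratio of 2028 with an exact 95% interval of 984 to 5046, which covers counting error only. The rank of 1 among 19126 genes is what the choice of the family rests on.

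Slfn1, the short founding member that slows thymocyte growth, followed Slfn4. It ranged from 1.19 to 12.7 CPM at 24 h (median 4.18), against 0 to 0.137 CPM in naive cortex, where 11 of 13 libraries had no count. The groups did not overlap, and the fitted log2 fold change was 7.77 ± 0.55, or 8.75 without the naive EM3, which holds the highest naive value. Pooled counts were 1340 at 24 h and 3 in naive cortex, a ratio of 377 with an interval of 129 to 1830.

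The other members had measurable naive levels. Slfn2, which holds immune cells in quiescence, was at 6.57 to 22.3 CPM at 24 h (median 11.1), against 0.555 to 2.11 CPM in naive cortex (median 1.33), a log2 fold change of 3.12 ± 0.19. Slfn8, a long member known from T cells and neuroinflammation models of the mouse, was at 4.13 to 14.5 CPM (median 8.57), against 0.241 to 1.98 CPM in naive cortex (median 1.18), a log2 fold change of 2.66 ± 0.24. Neither pair of groups overlapped.

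Slfn9, whose function is less studied, was at 5.63 to 11 CPM at 24 h (median 6.42), against 0.0603 to 1.19 CPM in naive cortex (median 0.442), a log2 fold change of 3.73 ± 0.27 (3.36 in batch A and 4.65 in batch B). Slfn5 was at 7.17 to 29.6 CPM (median 15.4), against 4.28 to 10.2 CPM in naive cortex (median 8.59), a log2 fold change of 0.86 ± 0.2 (0.55 in batch A and 1.39 in batch B). Slfn5 alone overlapped between the groups. All 6 were past an adjusted p of 0.05 in edgeR's quasi-likelihood test, as were 22.9% of all genes in this direction, and 5 of 6 did not overlap between the groups, as did 2.82% of the 40756 genes with counts. Since this contrast chose the family, nothing is read from these counts. Fewer or more cells of a type and less or more RNA per cell cannot be told apart in such tissue punches.

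The spread between animals at 24 h differed widely among members. The highest library exceeded the lowest 21.5-fold for Slfn4 and 10.7-fold for Slfn1, but 1.94-fold for Slfn9, 3.4-fold for Slfn2, 3.51-fold for Slfn8 and 4.14-fold for Slfn5. Slfn9 varied least between the injured punches and Slfn4 most.

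**Figure D1:**
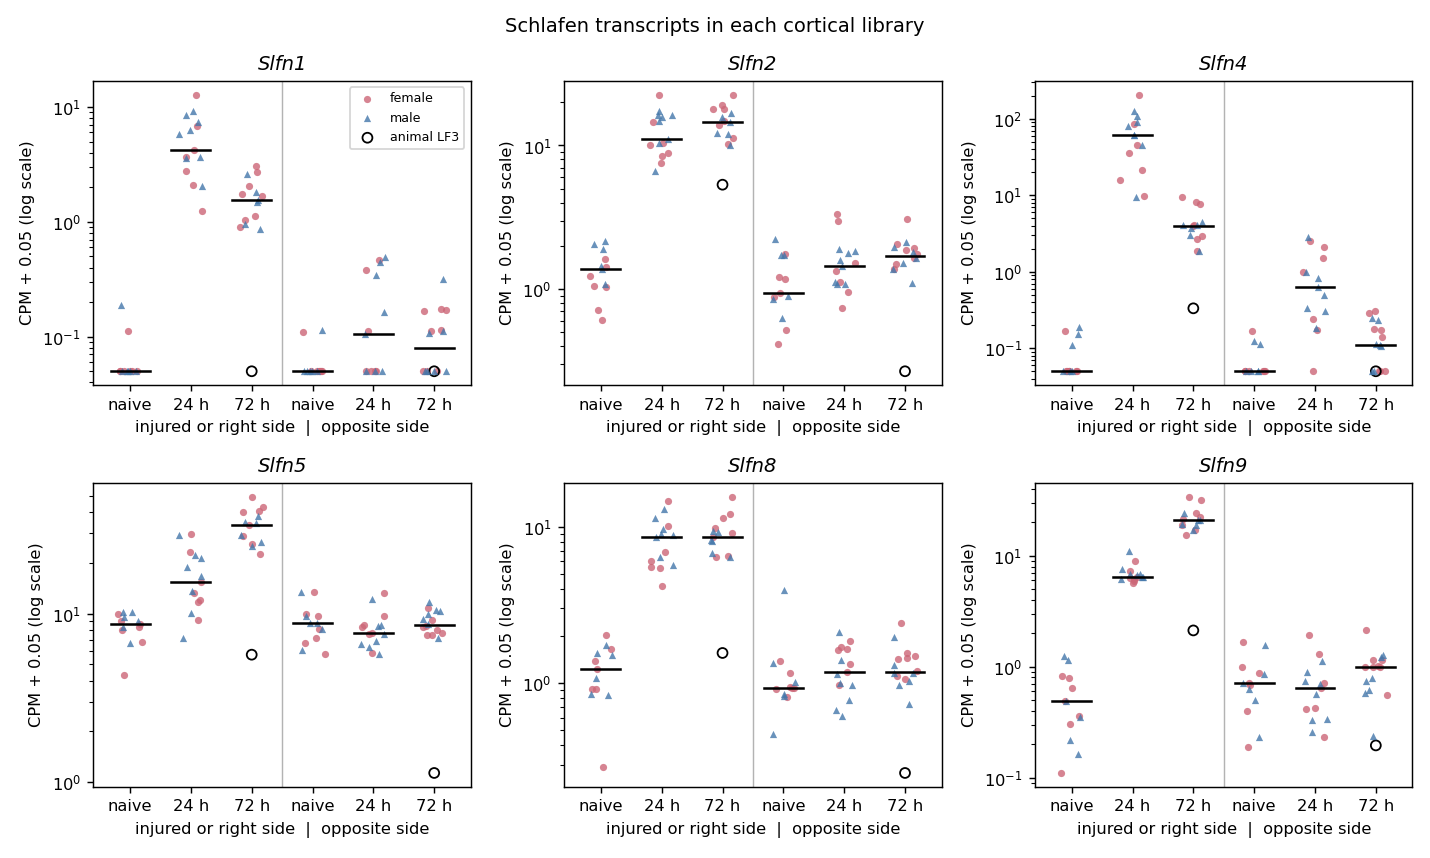
CPM of each Schlafen gene per library (vertical axis, log scale, after adding 0.05) in naive, 24 h and 72 h mice, with the injured or right side left of the grey line and the opposite side right of it; circles are females, triangles males, black lines group medians, and open circles the animal LF3. Slfn4 peaks at 24 h on the injured side with a median of 60.9 CPM, and Slfn9 is highest at 72 h with a median of 21 CPM.

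At 72 h the question was whether the family was still raised in the injured cortex, and it was. Per length Slfn2 and Slfn5 again led, as in naive cortex. Slfn9 was at 2.07 to 34.2 CPM over 15 libraries (median 21), against 0.0603 to 1.19 CPM in naive cortex (median 0.442), a log2 fold change of 5.01 ± 0.35 (adjusted p = 3.27e-15, edgeR quasi-likelihood test, as for all adjusted p-values below unless another tool is named). The lowest value belongs to LF3, and the groups did not overlap even with it. The fit includes the labelled batch, and batch C holds only 72 h animals. Fitted fold changes of 72 h against naive or 24 h, averaged over the sexes, thus rest mainly on batch B libraries. These are LF3, PF1, PF2, LM2 and PM2 on the injured side, while CPM ranges cover all 15. Without the batch term the log2 fold change of Slfn9 was 5.2 (adjusted p = 2.62e-20), and all 5 tested members were still called.

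Slfn5 was at 5.66 to 49.5 CPM at 72 h (median 33.6), against 4.28 to 10.2 CPM in naive cortex (median 8.59), a log2 fold change of 1.55 ± 0.29 (adjusted p = 2.64e-05). Without LF3 and PF1 its lowest value at 72 h was 22.7 CPM, above every naive library. Slfn2 was at 5.28 to 22.5 CPM at 72 h (median 14.5), and its log2 fold change was 3.14 ± 0.26 (adjusted p = 4.41e-13). Slfn8 was at 1.51 to 15.5 CPM (median 8.54), with a log2 fold change of 2.58 ± 0.32 (adjusted p = 1.53e-08).

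Slfn1 was at 0 to 3.03 CPM at 72 h (median 1.49), with 374 counts over 15 libraries against 3 counts in naive cortex, a pooled ratio of 111 with an interval of 37.7 to 540. Its log2 fold change was 5.78 ± 0.74 (adjusted p = 1.95e-08; 6.75 without the naive EM3), and the library at 0 is that of LF3. Slfn4 was at 0.283 to 9.56 CPM (median 3.95), against 0 to 0.137 CPM in naive cortex, a log2 fold change of 6.12 ± 0.96 that is given as a description (7.03 without the naive CF2, 6.6 ± 1.07 without LF3 and PF1, and 8.92 in batch B alone). The 5 members tested here were all higher at 72 h, against 27.8% of all genes, and the median log2 fold change was 3.14 over these 5 and 0.06 over all genes. Over whole groups, 2 of these 5, Slfn2 and Slfn9, did not overlap with naive cortex, against 3.38% of genes, and without LF3 and PF1 all 5 did not, against 7.6% of genes.

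Without LF3 and PF1 the fold changes at 72 h were larger. Of the batch B animals at 72 h, these fits keep PF2, LM2 and PM2 on the injured side. The log2 fold change against naive cortex was then 5.32 ± 0.3 for Slfn9, 1.86 ± 0.28 for Slfn5, 3.36 ± 0.27 for Slfn2, 2.87 ± 0.32 for Slfn8 and 6.34 ± 0.7 for Slfn1. The largest adjusted p among these 5 was 8.59e-07, for Slfn5.

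Between 24 h and 72 h the members parted, which is described without a test. Slfn4 had a median of 3.95 CPM at 72 h, against 60.9 CPM at 24 h, and no library at 72 h reached the lowest library at 24 h; the log2 fold change was -4.4 ± 0.59. Slfn1 had a log2 fold change of -1.99 ± 0.47, with overlapping groups. Slfn9 had a log2 fold change of 1.28 ± 0.28 and Slfn5 of 0.69 ± 0.26. Slfn2 and Slfn8 stayed within their standard errors, at 0.02 ± 0.23 and -0.08 ± 0.29. These values are 72 h minus 24 h, and 2 members were called higher and 2 lower, against 21.7% and 15.3% of all genes; the contrast chose the family, and nothing is read from the counts. Slfn4 was the 1 member whose groups did not overlap, lower at 72 h, as for 0.297% of genes. Without LF3 and PF1 every library at 72 h also lay above every library at 24 h for Slfn9, as for 4.17% of genes, and the log2 fold changes were -3.93 ± 0.68 for Slfn4, -1.43 ± 0.47 for Slfn1, 1.6 ± 0.25 for Slfn9 and 1 ± 0.26 for Slfn5.

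The makeup of the family differed between times. Per kb of exon, Slfn4 held a median of 48% of the summed level at 24 h (22 to 63.5% over 15 libraries), 4.5% at 72 h and 0% in naive cortex. Slfn9 held 2.8% in naive cortex, 3.51% at 24 h and 16.5% at 72 h. Slfn5 held 52.7% in naive cortex, 8.7% at 24 h and 24.2% at 72 h, and Slfn2 31.2%, 24.5% and 40.6% in the same order. The summed level of the 6 was 2.55 CPM per kb in naive cortex, 29.4 at 24 h and 21.4 at 72 h (medians). Of the members with the ETS-type letters, Slfn4 and Slfn1 were highest at 24 h and Slfn2 was level. Of those with the interferon-response letters Slfn5 and Slfn9 were highest at 72 h and Slfn8 was level. Slfn3, outside the 6, also holds the ETS-type letters and went the other way, with a larger fitted rise at 72 h than at 24 h. Any part of these letters in the time courses was not tested.

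**Figure D2:**
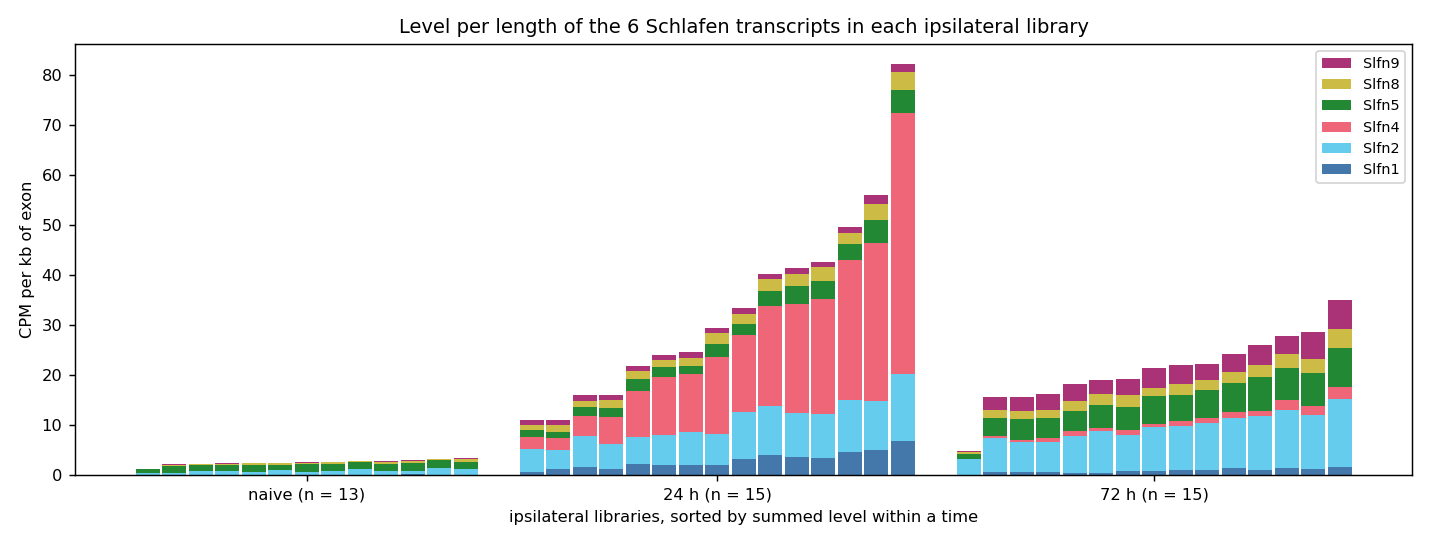
Level of the 6 Schlafen transcripts per kb of exon (vertical axis, CPM per kb, stacked) in each ipsilateral library, grouped by time and sorted by the sum within a time. Slfn4 fills a median of 48% of the bar at 24 h and 4.5% at 72 h, and the lowest bar at 72 h is LF3.

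**Figure D3:**
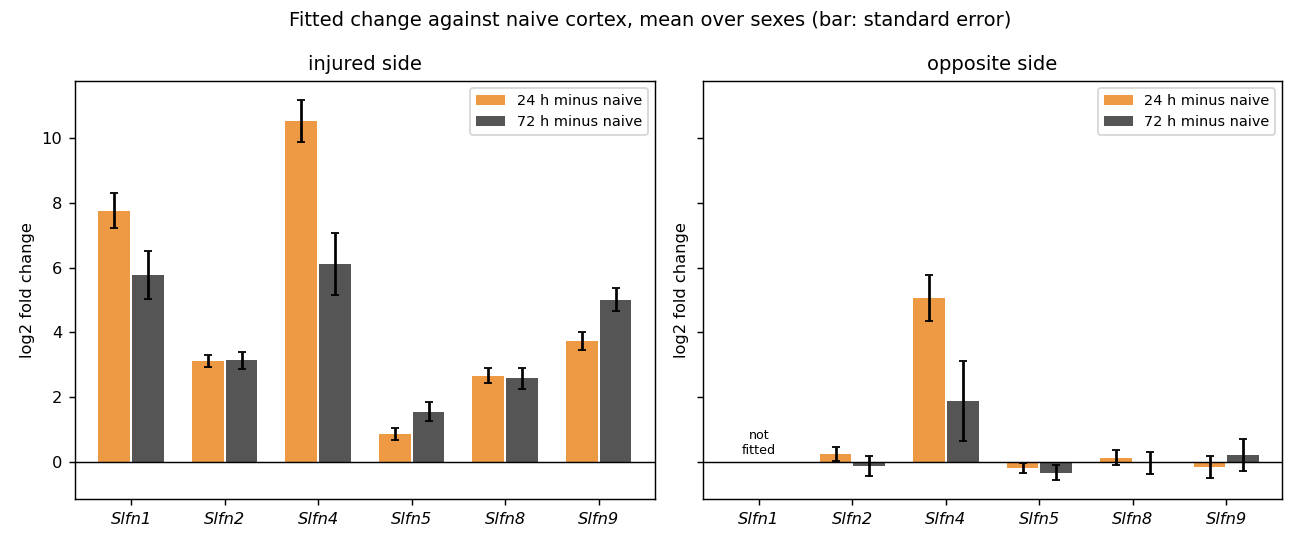
Fitted log2 fold change against naive cortex (vertical axis, mean over the sexes, with its standard error) for each member at 24 h and 72 h, on the injured side (left) and the opposite side (right); Slfn1 had too few counts to be fitted on the opposite side. On the opposite side Slfn4 at 24 h stands at 5.07, and the other fitted bars lie within -0.34 and 1.89.

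On the opposite side the question was whether the family also changed there, and of the 5 members fitted there Slfn4 passed the test. At 24 h contralateral Slfn4 was at 0 to 2.82 CPM over 15 libraries (median 0.592), against 0 to 0.117 CPM in 13 naive libraries (median 0). The ranges overlapped at the low end, with 1 library at 24 h at 0, while 10 of 13 naive libraries had no count. The log2 fold change was 5.07 ± 0.71 (adjusted p = 1.78e-05; 5.96 without the naive KF2), and it ranked 1 by fold change and 11 by p among the 18436 genes tested there. Pooled counts were 225 at 24 h and 4 in naive cortex, a ratio of 48.2 with an interval of 18.6 to 179. Slfn4 was the 1 member of 5 called higher, against 0.819% of all genes. It passed the low-count filter on this side only through its 24 h libraries, the group where it is high. Its ranks and calls on this side carry that selection, and nothing further is read from them. Within batches it was called in batch A (6.12, adjusted p = 0.00573) and not in batch B (3.92, adjusted p = 0.428).

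The rise was seen in both sexes. Contralateral Slfn4 in females had a log2 fold change of 5.39 ± 0.98 (adjusted p = 0.00784), among 9 genes (0.0488%) called higher in females. In males it was 4.75 ± 1.03 (adjusted p = 0.0117), among 71 genes (0.385%), and it was not called in males without DM2, the animal with the highest contralateral value. The level remained small beside the injured side, where pooled CPM was 65.2 against 0.911 on the opposite side, a ratio of 71.5 with an interval of 62.7 to 82.

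Slfn2, Slfn5, Slfn8 and Slfn9 did not pass the test on the opposite side at 24 h, with log2 fold changes of 0.25 ± 0.21, -0.19 ± 0.15, 0.12 ± 0.23 and -0.16 ± 0.35. Contralateral Slfn1 had 35 counts at 24 h and 2 in naive cortex, a pooled ratio of 15 with an interval of 3.86 to 129, and was too low to be fitted. Markers of other myeloid cells were measured there too. The 12 neutrophil genes summed to 7.72 to 22.4 CPM at 24 h (median 11.3) and 6.8 to 14.6 CPM in naive cortex (median 11.2), with Ly6g and Cxcr2 at 0 in all naive libraries. The 12 monocyte and macrophage genes summed to 116 to 255 CPM at 24 h (median 145) and 90.5 to 181 CPM in naive cortex (median 134), and Ccr2, the monocyte chemokine receptor, was called higher with a log2 fold change of 1.61 (adjusted p = 0.00693). Their part in the Slfn4 level was not tested.

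At 72 h none of the 5 members passed the test on the opposite side, against 0.26% of all genes called in either direction. None of them had an unadjusted p under 0.05 and DESeq2 called none. Fitted values at 72 h rest mainly on batch B animals on this side too. Contralateral Slfn4 was at 0 to 0.253 CPM at 72 h (median 0.0616), with a log2 fold change against naive cortex of 1.89 ± 1.24 (adjusted p = 0.483). Against 24 h it was lower at 72 h, with a log2 fold change of -3.18 ± 0.83 (adjusted p = 0.0167), the 1 member so called, against 0.803% of all genes called lower. The call was lost without LF3, where the adjusted p was 0.153 (-3.02), and without LF3 and PF1 it was 0.495 (-2.63 ± 0.91). In batch B alone the value was -3.07 with an adjusted p of 0.315. Over all genes, 1698 were called in either direction with LF3 and PF1 and 25 without them.

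Within animals, the injured side was set against the opposite side with the animal as a block. At 24 h the 5 members tested were all higher on the injured side, against 23.7% of all genes, with log2 fold changes of 5.2 ± 0.38 for Slfn1, 2.99 ± 0.17 for Slfn2, 0.92 ± 0.12 for Slfn5, 2.66 ± 0.19 for Slfn8 and 3.41 ± 0.19 for Slfn9. The largest adjusted p among them was 8.2e-09 (Slfn5). Slfn4, given as a description, stood at 6.12 ± 0.23. At 72 h the same 5 were higher, against 31.1% of genes, with Slfn9 at 4.56 ± 0.19, Slfn1 at 4.54 ± 0.47, Slfn2 at 2.99 ± 0.17, Slfn8 at 2.66 ± 0.2 and Slfn5 at 1.75 ± 0.12, and Slfn4, as a description, at 5.29 ± 0.36. Without PF1, whose 2 libraries differ in sex transcripts, and LF3, the values in the same order were 4.61 ± 0.19, 4.52 ± 0.47, 2.97 ± 0.18, 2.67 ± 0.2, 1.78 ± 0.12 and 5.26 ± 0.37, and the 5 were again higher. In naive mice none of 6 passed the test, and neither did any other gene (0% called); the widest difference in units of its error was Slfn9 at -0.55 ± 0.27 (unadjusted p = 0.0501). DESeq2 also called 0 of 6 there, 0 of 6 had an unadjusted p under 0.05 in edgeR, and 574 of all genes did.

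The study held females and males. No fitted Schlafen gene passed in the interactions of sex and injury or between naive females and naive males. Injured females and injured males were not contrasted directly. None of the interactions of sex and injury passed for any fitted member at either time on either side, and 0% of all genes passed in these 4 contrasts. For ipsilateral Slfn4 the female rise minus the male rise was 0.82 ± 2.4 at 24 h and 1.57 ± 2.72 at 72 h on the log2 scale, with errors wider than the differences. The errors were worked back from the F statistic and are rough for a gene with so few naive counts. For the Slfn4 rises at 24 h they were 0.945 within females and 0.898 within males. For Slfn2, Slfn5, Slfn8 and Slfn9 at 24 h it was 0.4 ± 0.36, 0.09 ± 0.38, -0.22 ± 0.45 and 0.17 ± 0.53. The smallest unadjusted p-values were 0.0346 for Slfn8 on the opposite side at 24 h (0.98 ± 0.45) and 0.0429 for Slfn2 on the injured side at 72 h (0.77 ± 0.37), with an adjusted p of 1 for each. Without LF3 and PF1 the values at 72 h on the injured side were 0.91 ± 0.37 for Slfn2 (adjusted p = 1) and 1.84 ± 3.27 for Slfn4. DESeq2 called no member in them, and 299 to 672 of all genes had an unadjusted p under 0.05 in edgeR. Ipsilateral Slfn4 at 24 h was at 9.7 to 206 CPM in females (median 36.2) and 9.61 to 126 CPM in males (median 70.5). Naive females and males did not differ beyond edgeR's test in any member, against 0.0366% of genes called on the right side and 0.0325% on the opposite side. Slfn2 on the right side, at -0.64 ± 0.3 (adjusted p = 1), was the 1 member with an unadjusted p under 0.05.

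Across the 15 injured punches at 24 h the members varied together, a measure that the choice of the family did not use. All 15 pairs of members were positively related (log2 CPM, prior count of 2), with Pearson's r of 0.638 to 0.953. All 15 passed a two-sided permutation test of 100000 resamples adjusted over the 33 relations computed. The share of other gene pairs that relate this way in these punches was not computed. Nothing particular to the family is therefore read from the count. Slfn1 and Slfn4 gave r = 0.953 and rho = 0.936 (unadjusted permutation p of 1e-05 for each, the smallest these resamples can give; adjusted p = 4.71e-05). Without the 2 animals farthest from the median of Slfn1, r was 0.925, and it was 0.962 in the 7 animals of batch A and 0.925 in the 8 of batch B. The pairs with Slfn9 were the loosest, at r = 0.66 with Slfn4 (adjusted permutation p = 0.0084; rho = 0.743), 0.671 without the 2 farthest animals, 0.623 in batch A and 0.754 in batch B.

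Each member was also set against 3 marker sums in the same 15 punches. All 6 passed with the summed interferon-induced genes, with r of 0.867 for Slfn5 and 0.891 for Slfn8 (adjusted permutation p = 6e-05 for each; rho = 0.889 and 0.832), 0.796 for Slfn1, 0.79 for Slfn4, 0.682 for Slfn2 and 0.671 for Slfn9 (adjusted permutation p of 0.00105, 0.00105, 0.00759 and 0.00666). Within batches these r were 0.44 to 0.81 in batch A and 0.815 to 0.979 in batch B. Of the 3 sums this one had the highest r for 5 of 6 members. The monocyte and macrophage genes had it for Slfn2, at r = 0.909 (adjusted permutation p = 4.71e-05, rho = 0.918, 0.878 in batch A and 0.973 in batch B). This order held for Slfn5 and Slfn8 by rho, within batches and without each sum's 2 farthest animals. For Slfn1 and Slfn4 it was close, with r of 0.786 and 0.765 for the monocyte and macrophage genes. In batch A their r was 0.734 and 0.774 with those genes, against 0.691 and 0.619. Without the 2 farthest animals it was 0.798 and 0.8, against 0.76 and 0.755. For Slfn9 the monocyte and macrophage genes had the higher rho (0.632 against 0.596). With the monocyte and macrophage genes 5 members passed by r, Slfn4 at r = 0.765 (adjusted permutation p = 0.00178). Slfn9 did not pass by r (0.454, adjusted permutation p = 0.0954) but did by rho (0.632, adjusted permutation p = 0.0157). With the neutrophil genes Slfn1, Slfn2 and Slfn4 passed, at r of 0.604, 0.692 and 0.538 (adjusted permutation p of 0.0169, 0.00429 and 0.039). Their rho was 0.768, 0.818 and 0.643 (adjusted permutation p of 0.00198, 0.000812 and 0.0145). For Slfn1 this rho was the highest of the 3 sums, against 0.761 for the monocyte and macrophage genes and 0.754 for the interferon-induced genes. For Slfn2 it lay above the 0.561 of the interferon-induced genes and below the 0.918 of the monocyte and macrophage genes. Slfn5, Slfn8 and Slfn9 did not pass by r, at 0.397, 0.489 and 0.207 (adjusted permutation p of 0.148, 0.0638 and 0.416). By rho Slfn5 and Slfn8 did pass, at 0.593 and 0.643 (adjusted permutation p of 0.0241 and 0.0145). Slfn9 did not pass by rho either (0.346, adjusted permutation p = 0.206). DM2, whose neutrophil genes summed to 819 CPM, lies far from the other animals. Without it and RF1 the r with the neutrophil genes was 0.721 for Slfn4, 0.788 for Slfn1 and 0.827 for Slfn2. It was then 0.703 for Slfn5, 0.58 for Slfn8 and 0.33 for Slfn9. Whether the relations differ from each other was not tested.

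Slfn4 on the 2 sides of the same animals was also related at 24 h, a relation added after the data were seen. Over 15 animals r was 0.625 (permutation p = 0.0139, not part of the 33) and rho 0.564 (permutation p = 0.0316), 0.601 without the 2 farthest animals, 0.703 in batch A and 0.736 in batch B. The 3 highest contralateral values, 2.82, 2.45 and 2.06 CPM, came from 1 male and 2 females.

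**Figure D4:**
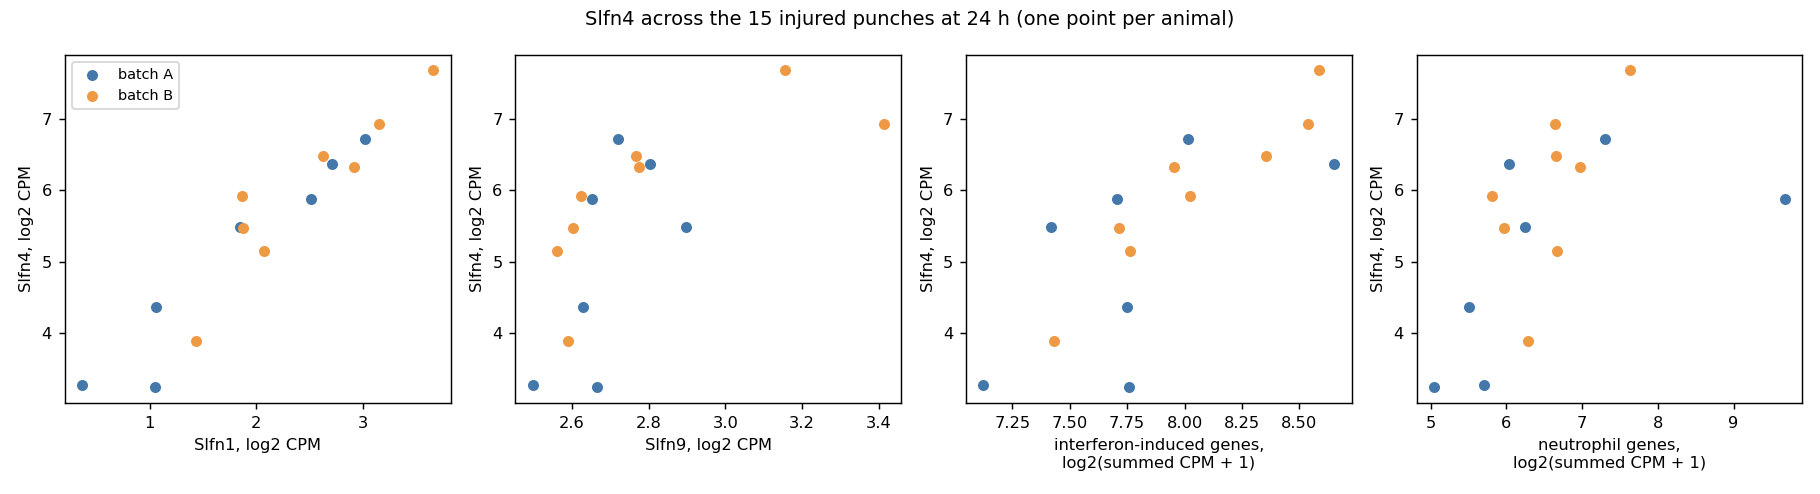
Slfn4 (vertical axis, log2 CPM) against Slfn1, Slfn9, the summed interferon-induced genes and the summed neutrophil genes (horizontal axes, log2 scale) in the 15 injured punches at 24 h, 1 point per animal, coloured by batch. Slfn1 tracks Slfn4 closely at r = 0.953, while Slfn9 spans a narrow range at r = 0.66, and 1 animal lies far to the right for the neutrophil genes.

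Of the 4 other Schlafen genes, 2 had enough counts on the injured side. Slfn10-ps, a pseudogene beside Slfn8 that shares sequence with it and with Slfn9, was at 1.33 to 3.25 CPM at 24 h, against 0 to 0.248 CPM in naive cortex, a log2 fold change of 4.25 ± 0.32 (adjusted p = 1.68e-14). It remained higher at 72 h, at 3.46 ± 0.42 (adjusted p = 8.08e-09). Slfn3, the near copy of Slfn4 in sequence, had a log2 fold change of 0.53 ± 0.28 at 24 h (adjusted p = 0.129) and of 1.46 ± 0.4 at 72 h (adjusted p = 0.00263). At 24 h Slfn3 was at 0.246 to 2.01 CPM, against 0.0632 to 1.18 CPM in naive cortex. Slfn14 and Slfnl1 had at most 29 and 25 counts in any group and were too low to be fitted.

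Interferons are known inducers of several Schlafen genes. Of 18 interferons, receptors and signalling genes, 16 were fitted and 12 were higher at 24 h and 12 at 72 h (15 at 72 h without LF3 and PF1), with none lower, against 22.9% and 27.8% of all genes called higher. At 24 h Irf9, a subunit of the interferon-activated factor, rose by 1.34 and Irf7, a master switch of interferon genes, by 2.62. Of 22 interferon-induced genes 21 were higher at each time, also without LF3 and PF1, with medians of 2.07 at 24 h and 2.71 at 72 h, against 0.01 and 0.06 over all genes. At 24 h the nucleic acid sensor Zbp1 stood at 4 ± 0.3 and the antiviral enzyme Rsad2 at 3.72 ± 0.34, and Cmpk2, a mitochondrial kinase, did not pass at -0.01 ± 0.09. The summed level of the 22 genes was 52 to 108 CPM in naive cortex, 138 to 401 CPM at 24 h and 210 to 484 CPM at 72 h. On the opposite side at 24 h none of the 20 induced genes fitted passed the test and 2 had an unadjusted p under 0.05, while 1 of 20, Ifit3, was called higher when LF3 and PF1 were left out of that fit (0.48 ± 0.18, adjusted p = 0.168, with them).

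The cell markers were measured on the injured side too. The 12 neutrophil genes summed to 6.89 to 27.9 CPM in naive cortex, 32 to 819 CPM at 24 h and 31.8 to 115 CPM at 72 h, with Ly6g at 0 in naive cortex. The 12 monocyte and macrophage genes summed to 105 to 214, 245 to 752 and 470 to 2663 CPM in the same order, with F10 at 0 in naive cortex. The 9 microglia genes summed to medians of 279, 331 and 1249 CPM, and the 12 T and NK cell genes to medians of 1.33, 2.25 and 3.89 CPM. The 5 red cell genes summed to 3.15 to 90.9 CPM in naive cortex, 30.3 to 590 CPM at 24 h and 70.7 to 509 CPM at 72 h. All 5 were called higher than in naive cortex at both times, against 22.9% of all genes at 24 h and 27.8% at 72 h. At 72 h, 5 of 11 neutrophil genes fitted were called lower than at 24 h and 1 higher, against 15.3% and 21.7% of all genes. In the same contrast 9 of 9 microglia genes, 5 of 6 endothelial genes, 4 of 6 astrocyte genes, 11 of 22 interferon-induced genes and 5 of 12 monocyte and macrophage genes were called higher. Without LF3 and PF1 these counts were 9, 5, 5, 12 and 5, and of 10 neutrophil genes fitted 5 were lower and 0 higher. The part of these cells and of blood in the Schlafen levels was not tested.

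The genes around the cluster were counted for comparison. Of the 10 nearest coding genes, 5 on each side, none was higher at 24 h than in naive cortex. Rasl10b, which encodes a small GTPase, was lower at -0.91 ± 0.11 (adjusted p = 5.65e-09). Of all genes 22.9% were called higher and 20.1% lower there. Without LF3 and PF1 in the fit, 1 of the 10 was called higher and 1 lower. Their median log2 fold change was -0.02 at 24 h. The median over the 6 members was 3.43, in the contrast that chose them, so nothing is read from the difference. At 72 h Rffl was higher, at 0.46 ± 0.19 (adjusted p = 0.044), and Rasl10b and Ap2b1 were lower. Of all genes 27.8% were called higher and 20.7% lower at that time.

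The genes whose mean levels over the 12 groups of sex, time and side were most like each member were found by Pearson's r among 15733 genes, as a description. For Slfn4 they were Fosl1, an AP-1 subunit (r = 0.988), Pik3r1, the regulatory subunit of PI3-kinase (0.986), Galnt15 (0.986), Map3k6 (0.983) and S100a9, a calcium-binding protein of neutrophils (0.98). For Slfn1 they were Ptges, the prostaglandin E synthase, and Ppp1r15b; for Slfn2, Bcl3 and Mcl1; for Slfn5, Rassf4 and Itga6. For Slfn8 they were Nfkbia, the inhibitor of NF-kappaB, and Tmbim1, and for Slfn9 Fcgr2b, the inhibitory antibody receptor, and Tnfrsf1b. All these r lay between 0.98 and 0.997, and the groups share the strong contrast of injured with other punches. Among the members themselves, the same measure was 0.991 for Slfn2 with Slfn8 and 0.981 for Slfn1 with Slfn4, and 0.659 for Slfn4 with Slfn5.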

How the data were processed

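The authors deposited a table of whole-number read counts per gene for 88 cortical libraries of 44 mice. The submitters' processing notes name HISAT2 2.0.5 and mm10. How reads were counted, with which annotation and strand setting, is not given here in the sources used. The labels' protocols state a depth of at least 20 M reads. Symbols matched 54409 of 54532 identifiers; positions came from GENCODE M21 and promoters from RefSeq GRCm38.p6.

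Counts were fitted with edgeR 4.0.16 in R 4.3.3 (low-count filter, TMM scaling, groups of sex, time and side plus the labelled batch, quasi-likelihood F test). Benjamini-Hochberg adjustment was made within each contrast over all genes of the fit, and not across contrasts, with a threshold of 0.05. The ipsilateral fit held 43 libraries and 19126 genes, the contralateral fit 44 libraries and 18436 genes, and the fit of both sides 86 libraries of 43 animals and 19946 genes with the animal as a paired block; the pairing comes from the animal label. A time contrast is the mean of its values in females and males. CPM was taken over each library's total count and was divided by exonic length for levels per kb. Marker lists entered relations as log2(summed CPM + 1). Standard errors were worked back from the F statistic, as the absolute log2 fold change over the square root of F, and are approximate. Pooled ratios carry exact 95% intervals, which cover counting error only. Mice are separate animals, so the spread is between animals. Relations and their permutation tests used numpy 2.4.6, with ranks from SciPy 1.17.1. Correlations of group means were computed in R.

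The 6 members are always named; likeness partners are the 5 genes (Slfn4) or 2 genes (others) of highest r; list genes are named by smallest p, up to 4 a comparison, and the few exceptions to a count were named after their values were seen. The members, lists and tests were chosen with earlier results of these data known. Alternatives were no filter, DESeq2 1.42.0 as test or size factors, no batch term, single batches, no block, and leaving out each library of the ipsilateral and contralateral fits. The ipsilateral fit, the fit of both sides and the relations were tested on simulated data. There the fit of both sides was given the simulated spread, so its own estimate of the spread was not checked. The ipsilateral library of PM1 entered no comparison.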

Additional observations from a re-analysis of the deposited data

Results flagged for a closer look

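In 72 groups of 6 to 9 libraries, the highest or lowest level of a Schlafen gene was tested for standing apart from the rest of its group. The test used log2 CPM with a prior count of 2, and values are printed as CPM. Of these levels 17 stood apart, where chance gives about 1 in 20 groups where values vary. Of the 17, 7 belong to the female LF3 at 72 h. On its injured side Slfn1 was at 0, Slfn5 at 5.66, Slfn8 at 1.51 and Slfn9 at 2.08 CPM, where the other 8 females began at 0.844, 22.7, 6.32 and 15.2 CPM. On its opposite side Slfn2 was at 0.217, Slfn5 at 1.08 and Slfn8 at 0.217 CPM, where the others began at 1.33, 7.37 and 1.01 CPM.

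In naive groups 6 of the 17 are single libraries with a low level where all others of their sex and side had no count, so that any count stands apart and the chance rate does not apply. On the right side Slfn1 was at 0.063 CPM in KF2 and 0.137 CPM in EM3, and Slfn4 at 0.119 CPM in CF2. On the opposite side Slfn1 was at 0.059 CPM in KF2 and 0.065 CPM in KM3, and Slfn4 at 0.117 CPM in KF2.

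The other 4 are single animals. Slfn4 was at 9.61 CPM in the male FM2 at 24 h on the injured side, where the other 7 males were at 45.8 to 126 CPM. Slfn9 was at 11 CPM in the male QM2 at 24 h, where the others were at 6.14 to 7.49 CPM. Slfn1 was at 0.266 CPM in the male TM1 at 72 h on the opposite side, where the others were at 0 to 0.061 CPM. Slfn5 was at 4.28 CPM in the naive female KF3, where the others were at 6.76 to 9.97 CPM.

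The injured punch of PM1, which entered no comparison, held Slfn1 at 1.18, Slfn2 at 15.3, Slfn4 at 3.91, Slfn5 at 28.3, Slfn8 at 9.56 and Slfn9 at 17.6 CPM. Each value lies above the highest of the 13 naive right punches, which were 0.137, 2.11, 0.137, 10.2, 1.98 and 1.19 CPM in the same order.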

How the results depend on the processing

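Without the low-count filter, with DESeq2 size factors and without the batch term, no result changed its direction or call. With DESeq2 as the test none did among those given an adjusted p, and Slfn4 at 72 h against 24 h on the opposite side received none. Slfn4 at 24 h against naive on the injured side (10.53; in females 10.94) was 13.33 in batch B alone and 13.21 in females there. Also in batch B alone, Slfn5 (0.86) was 1.39 and Slfn9 (3.73) was 4.65 in that contrast, and Slfn4 at 72 h against naive (6.12) was 8.92; the cause was not tested. On the opposite side, the count of members called at 24 h against naive (1) was 0 in batch B, and per sex (2) it was 0 in each batch alone. The count at 72 h against 24 h there (1, and 1 per sex) was 0 in batch B and 0 without LF3 and PF1. Of 33 relations 29 passed by Pearson's r, 28 in the 8 animals of batch B, 6 in the 7 of batch A and 31 without the 2 farthest animals. Batch A holds no 72 h animals and batch C only those, so batch C gave no contrast with naive.

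Each of the 87 libraries of the ipsilateral and contralateral fits was left out in turn. This gave 10.29 to 11.43 for Slfn4 at 24 h against naive on the injured side (females 10.41 to 12.75, the highest without CF2) and -4.8 to -3.84 at 72 h against 24 h (females -4.55 to -3.15). Counts of members called ranged from 1 to 2 per sex at 24 h against naive on the opposite side, 1 without DM2. They ranged from 0 to 1 at 72 h against 24 h there, 0 without LF3, and per sex 0 without LF3, PF1, RF1 or RF2. No other count of members changed in these fits. Leaving out each animal in the fit of both sides was not run. The paired design was also fitted with no replicate block, which called the same numbers of members: 0 in naive mice, 5 at 24 h and, with Slfn4 included, 6 at 72 h. Without LF3 and PF1 the genes called on the opposite side numbered 1111 instead of 388 at 24 h against naive, 14 instead of 48 at 72 h against naive and 25 instead of 1698 at 72 h against 24 h. Slfn1 and Slfn4 had so few naive counts that their fold changes against naive depend on the prior count.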
